A study of Mus musculus with 6 samples.

Results

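Genes of EGF receptor and HGF signaling, 10 in all, were followed in mouse livers after an acetaminophen (APAP) overdose. They were selected by gene name from the 34745 genes of the count table, and each of the 10 names matched 1 row. They are the receptors Egfr, Erbb3 and Met, the MET ligand Hgf, the EGF-family ligands Areg, Hbegf, Tgfa, Ereg and Btc, and the feedback inhibitor Errfi1. The study asked whether the nuclear receptor PXR is S-nitrosylated and what this does in liver injury by APAP, and the RNA-Seq compared APAP with control livers. According to the methods, male C57BL/6J mice of 8 to 10 weeks were fasted for 12 h and injected once with either APAP or saline. The labels give the genotype as wild type, and the sex is taken up below. APAP was given at 300 mg/kg and the livers were taken 12 h later. Whole-liver RNA was sequenced, and 2 APAP libraries (replicates 1 and 3) and 3 saline libraries (WT1, WT2 and WT3) were analysed. The columns named WT were taken for the saline group, since the remaining columns carry the name of APAP, and each direction given here depends on this. The second APAP replicate was not analysed here.

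EGF-family ligands are made as membrane-bound precursors that proteases release, and they bind receptors of the ERBB family on the same or neighbouring cells. HGF is secreted by non-parenchymal cells of the liver, mainly stellate and endothelial cells, as an inactive precursor, and after cleavage it activates MET on hepatocytes. In the rodent liver both routes drive hepatocytes into the cell cycle after partial hepatectomy or toxic injury. A change in the mRNA of a whole liver can come from a different number of cells of a type or from a different amount of RNA per cell, and these cannot be told apart in bulk samples.

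The libraries held between 13378445 and 15976339 counts. Levels are given as CPM, counts scaled to a common library size with TMM factors, which correct for library composition and were 1.27 and 1.09 in the APAP libraries and 0.783 to 0.980 in the saline libraries. A count of 3, used as the floor of detection, was worth 0.176 to 0.269 CPM, which covers counting error only. Hepatocyte markers were present in every library, with a summed level of 76570 to 118797 CPM with APAP and 118856 to 162246 CPM with saline. The groups also differed in sex-linked genes. Xist, which is transcribed from the inactive X chromosome, had 0.764 and 1.73 CPM with APAP but 289.6 to 914 CPM with saline. Ddx3y, a gene of the Y chromosome, had 61.7 and 79.0 CPM with APAP but at most 1 count in each saline library. The methods name male mice for both groups, but the saline libraries had the pattern of females in these genes and the APAP libraries that of males. Treatment and this sex-linked difference therefore cannot be told apart in any comparison here. The methods state that experiments used biological repeats, but the labels do not tie each library to a separate animal. The p-values measure the spread between these libraries.

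The promoters of 3 ligand genes are shown, because ligands carried the largest changes among the members. They are RefSeq sequences of GRCm38.p6 that run from 250 bases before to 50 bases after the transcription start. Such windows were read for 7 of the 10 members. Capitals mark matches, on either strand, to 5 motifs: AP-1 (TGANTCA), CRE (TGACGTCA), the GC box (GGGCGG), the TATA box (TATAAA) and an EGR motif (GCGNGGGCG), whose matches can overlap those of the GC box. Areg lies at chr5:91139349-91139648 on the plus strand, Btc at chr5:91402945-91403244 on the minus strand and Tgfa at chr6:86194972-86195271 on the plus strand.
Areg: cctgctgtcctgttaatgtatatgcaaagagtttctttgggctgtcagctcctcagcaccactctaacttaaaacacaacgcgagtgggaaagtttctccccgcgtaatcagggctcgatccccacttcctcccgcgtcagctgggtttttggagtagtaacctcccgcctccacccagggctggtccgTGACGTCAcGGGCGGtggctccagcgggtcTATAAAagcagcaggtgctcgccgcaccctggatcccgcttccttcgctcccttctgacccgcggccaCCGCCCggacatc
Btc: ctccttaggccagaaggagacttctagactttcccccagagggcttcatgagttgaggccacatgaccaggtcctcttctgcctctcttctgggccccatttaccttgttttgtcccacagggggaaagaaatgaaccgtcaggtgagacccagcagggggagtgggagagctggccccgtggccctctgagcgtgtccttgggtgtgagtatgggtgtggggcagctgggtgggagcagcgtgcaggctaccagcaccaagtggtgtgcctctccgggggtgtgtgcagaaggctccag
Tgfa: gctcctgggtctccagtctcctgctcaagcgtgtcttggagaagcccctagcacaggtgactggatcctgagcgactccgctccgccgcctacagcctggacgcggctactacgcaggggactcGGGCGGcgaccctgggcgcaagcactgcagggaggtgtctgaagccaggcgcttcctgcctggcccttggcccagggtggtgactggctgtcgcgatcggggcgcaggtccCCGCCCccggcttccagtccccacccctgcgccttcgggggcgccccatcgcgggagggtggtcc
The Areg window held a CRE at position -61 from the start, GC boxes at -52 and 38 and a TATA box at -31. The CRE was found in 1.79% and the TATA box in 13.6% of 32851 mouse promoters of the same length. The Tgfa window held GC boxes at -126 and -15, a motif found in 35.7% of promoters. None of the 5 motifs was found in the Btc window, which says only that these letters are not in it. AP-1 and EGR motifs occurred in 7.81% and 5.55% of all promoters and in none of these 3 windows.

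The members that rose were the EGF-family ligands Hbegf and Btc. They were 4.02-fold and 4.56-fold higher in APAP livers and were the only members with an adjusted p under 0.05 in the quasi-likelihood test of edgeR, adjusted by Benjamini-Hochberg over 13734 genes. Of the members, 2 were thus called higher and 0 lower, where 3.70% of all tested genes were called higher and 3.53% lower. The study used a threshold on fold change and one on p, without saying whether p was adjusted, and it was used here without adjustment. Requiring a 1.5-fold change and a p under 0.05, 4 ligands were called higher (Areg, Hbegf, Ereg and Btc) and 1 receptor lower (Erbb3). The background at these thresholds was 12.3% higher and 11.2% lower. Areg and Ereg entered the test through the libraries in which they were high, so their direction was fixed by the filter, and requiring at least 10 counts per library left 2 members called higher and 1 lower. For 4 members both APAP libraries lay above all saline libraries, and for 2 (Erbb3 and Errfi1) both lay below. Of all tested genes, 24.0% lay above and 20.1% below in this way. The median log2 fold change was 1.005 over the members, 2.19 over the 5 EGF-family ligands and 0.03 over all tested genes. With Areg at its lower bound, since it had no saline count, the median was 0.96 over the members and 2.01 over the 5 ligands. All 10 members passed the filter on low counts, Areg and Ereg only through their APAP counts.

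**Figure D1:**
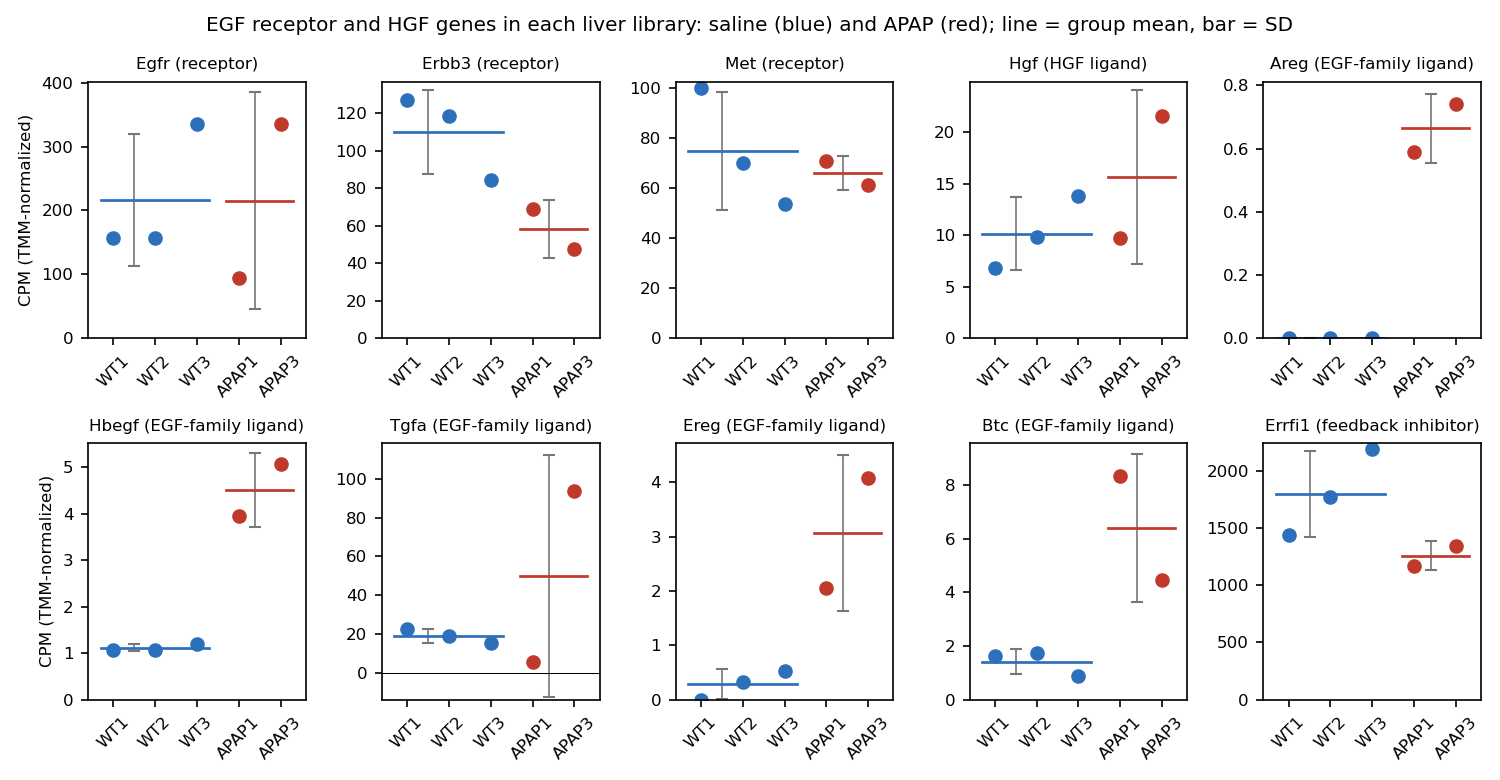
Level of each of the 10 members in CPM (vertical axes, starting at 0 except for Tgfa, whose SD bar runs below it) in the 2 APAP and the 3 saline libraries, with points for libraries and bars for the group mean and SD. Hbegf and Btc are higher in both APAP libraries than in each saline library, while the 2 APAP libraries of Tgfa lie at 5.76 and 94.0 CPM, on either side of the saline libraries.

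Hbegf encodes heparin-binding EGF-like growth factor, which activates EGFR and ERBB4. It lies on chr18 at 36504929 to 36515805 on the minus strand (ENSMUSG00000024486), and its promoter was not among those read. Its raw counts were 67 and 82 with APAP against 12, 16 and 18 with saline. These correspond to 3.94 and 5.07 CPM against 1.08, 1.06 and 1.20 CPM, so that the groups were well separated. The mean was 4.50 ± 0.800 CPM (SD, n = 2) with APAP and 1.11 ± 0.0772 CPM (SD, n = 3) with saline. This was a log2 fold change of 2.01 (SE 0.39, 95% interval 1.09 to 2.92), with an edgeR adjusted p of 0.0314. Leaving out any 1 of the 5 libraries kept the log2 fold change between 1.80 and 2.18 but raised the adjusted p to between 0.0554 and 0.151, so the call needed all 5 libraries.

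Btc encodes betacellulin, another ligand of EGFR and ERBB4, and lies on chr5 at 91357261 to 91402994 on the minus strand (ENSMUSG00000082361). It had 142 and 72 raw counts with APAP and 18, 26 and 13 with saline. Its levels were 8.34 and 4.45 CPM against 1.61, 1.73 and 0.868 CPM. Both APAP libraries were thus above each saline library, although they differed 1.87-fold from each other. The mean was 6.40 ± 2.75 CPM (SD, n = 2) against 1.40 ± 0.466 CPM (SD, n = 3). Btc thus had a log2 fold change of 2.19 (SE 0.46, 95% interval 1.09 to 3.29) and an edgeR adjusted p of 0.0401. Without any 1 library the log2 fold change lay between 1.67 and 2.56 and the adjusted p between 0.0616 and 0.254.

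Ereg and Areg were near or under the floor in saline livers. Ereg encodes epiregulin, which binds EGFR and ERBB4, and lies on chr5 at 91074622 to 91093646 on the plus strand (ENSMUSG00000029377). An antisense gene, Gm19610, overlaps 141 bases of its exons, and without a stated strand setting reads of the 2 cannot be told apart there. Ereg had 35 and 66 raw counts with APAP and 0, 5 and 8 with saline, or 2.06 and 4.08 CPM against 0, 0.332 and 0.534 CPM. The groups did not overlap, and the fitted log2 fold change was 3.30 (SE 0.89, 95% interval 1.20 to 5.41). Its edgeR p was 0.00760 before and 0.0739 after adjustment, so it passed the unadjusted thresholds and missed the adjusted one. Leaving out APAP replicate 3 gave an unadjusted p of 0.0591.
Areg encodes amphiregulin, a ligand of EGFR that epithelial and immune cells release after injury. It lies on chr5 at 91139599 to 91148432 on the plus strand (ENSMUSG00000029378), and its start is inside the promoter window printed here. Only 10 and 12 reads were counted with APAP and none in the 3 saline libraries. This corresponds to 0.588 and 0.742 CPM with APAP. Their mean of 0.665 CPM was at least 2.47-fold higher than the largest saline floor of 0.269 CPM. The edgeR p was 0.00584 before and 0.0635 after adjustment. Both genes were called at the adjusted threshold by edgeR's likelihood ratio test and by DESeq2, where the adjusted p was 0.00545 for Ereg and 0.0378 for Areg. These tests used the same filter, which fixed the direction of both genes, so they are no separate support. Areg remained in the test under 9 of the 12 alternative settings.

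Tgfa was the ligand on which the APAP libraries differed most. It encodes TGF-α, the ligand of EGFR that hepatocytes make in growing and regenerating liver, and lies on chr6 at 86195223 to 86275719 on the plus strand (ENSMUSG00000029999). Gm43917 overlaps 118 bases of its exons on the opposite strand, with the same limit. Tgfa raw counts were 98 in APAP replicate 1 and 1520 in APAP replicate 3, against 254, 286 and 230 with saline. On the CPM scale these were 5.76 and 94.0 against 22.8, 19.0 and 15.4, so that 1 APAP library was below and the other above all saline libraries. The 2 APAP libraries differed 16.3-fold, and 199 of the 13734 tested genes (1.45%) differed at least as much between them in either direction. The fitted log2 fold change was 1.39 (SE 0.89, 95% interval -0.72 to 3.50, edgeR adjusted p 0.391). Leaving out APAP replicate 1 gave 2.31 (adjusted p 0.0250), and leaving out APAP replicate 3 gave -1.73 (adjusted p 0.0702). No common direction can therefore be given for Tgfa.

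The ligands can be compared with each other only per length. Divided by the length of the annotated exons, the summed level of the 5 EGF-family ligands was 4.53 and 18.1 CPM per kb in APAP replicates 1 and 3 and 4.09, 3.61 and 2.94 CPM per kb in the saline libraries. Tgfa made up 80.6 to 85.8% of this sum in saline livers and 79.9% in APAP replicate 3, but 19.6% in APAP replicate 1. Without Tgfa the sum was 3.64 and 3.63 CPM per kb with APAP and 0.570 to 0.682 CPM per kb with saline. These 4 ligands were each above the saline libraries, so their sum was as well. Its near equality in the 2 APAP libraries arose from Btc, at 1.85 and 0.985 CPM per kb, and Ereg, at 0.498 and 0.988 CPM per kb, which differed in opposite directions.

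**Figure D2:**
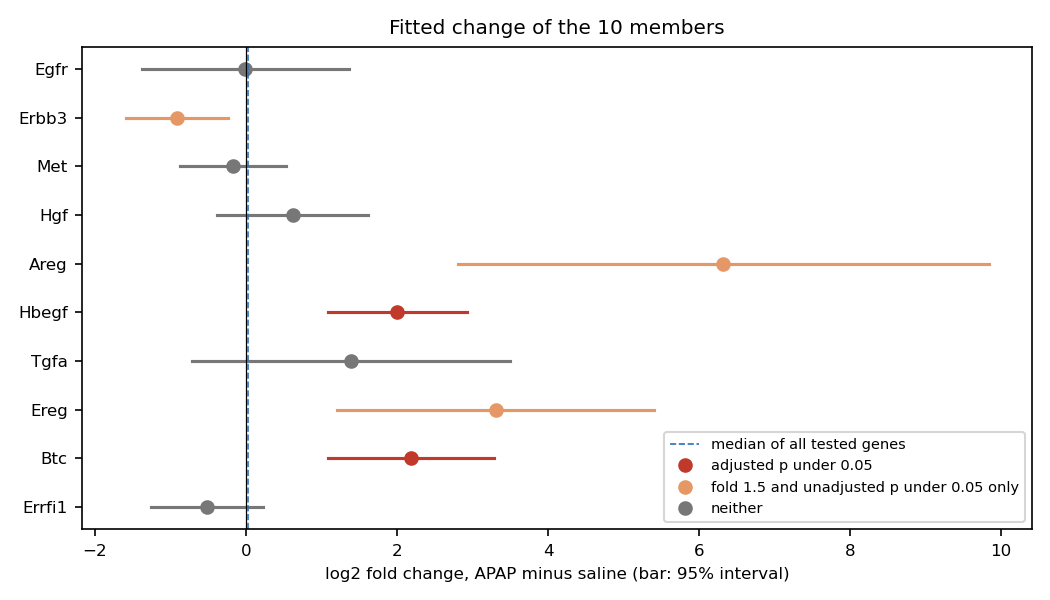
Fitted log2 fold change of each member (horizontal axis, APAP minus saline) with its 95% interval from edgeR's quasi-likelihood test, beside the median of all tested genes as a dashed line. The intervals of Hbegf, Ereg, Btc and Erbb3 do not reach 0, but Ereg passed the filter only through its APAP counts. The fitted value of Areg, which had no saline count, depends on the prior count and is no bound.

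None of the 3 receptors passed the adjusted threshold in edgeR, and 1 of them, Erbb3, had an unadjusted p under 0.05 and was called by DESeq2. Erbb3 encodes a receptor with little kinase activity of its own that signals in pairs with other ERBB receptors and binds neuregulins. It lies on chr10 at 128567523 to 128589652 on the minus strand (ENSMUSG00000018166) and had 1175 and 766 raw counts with APAP and 1417, 1785 and 1264 with saline. Its levels were 69.0 and 47.3 CPM with APAP and 127, 119 and 84.4 CPM with saline. Both APAP libraries were below each saline library, with means of 58.2 ± 15.3 CPM (SD, n = 2) and 110.0 ± 22.5 CPM (SD, n = 3). The log2 fold change was -0.92 (SE 0.28, 95% interval -1.59 to -0.24), with an edgeR p of 0.0148 before and 0.104 after adjustment. In DESeq2 the adjusted p was 0.0218. With library size in place of TMM the log2 fold change was -0.49, while the median of all genes moved to 0.42, and the unadjusted p was 0.1496. Leaving out APAP replicate 3 gave a log2 fold change of -0.68 and an unadjusted p of 0.107. The hepatocyte markers had 0 of 6 called in edgeR at the adjusted threshold. At the unadjusted thresholds 2 of 6 were called lower and 0 higher. Without overlap, 4 of 6 lay below saline, as Erbb3 did, and 1 lay above. Of all tested genes, 20.1% lay below and 24.0% above in this way. The part of hepatocytes in the Erbb3 values was not tested.

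Egfr encodes the EGF receptor, which is abundant in hepatocytes and in mouse liver is known to be higher in males. It lies on chr11 at 16752203 to 16918158 on the plus strand (ENSMUSG00000020122). It had 1612 and 5422 raw counts with APAP and 1752, 2348 and 5030 with saline. In CPM these were 94.7 and 335 against 157, 156 and 336, and the groups overlapped. The means were 215 ± 170 CPM (SD, n = 2) and 216 ± 104 CPM (SD, n = 3). The log2 fold change was -0.0097 (SE 0.58, edgeR adjusted p 0.995). Its 95% interval of -1.38 to 1.36 holds changes in either direction, so these libraries do not settle whether Egfr changed. The APAP libraries differed 3.54-fold, and 656 tested genes (4.78%) differed at least as much between them. Leaving out APAP replicate 3 gave -1.20 and leaving out APAP replicate 1 gave 0.64, so its sign depended on single libraries. With library size in place of TMM it was 0.30. In both groups 1 library, APAP replicate 3 and WT3, had about the same high level.

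Met encodes the receptor of HGF and lies on chr6 at 17463800 to 17573980 on the plus strand (ENSMUSG00000009376). It had 1206 and 992 raw counts with APAP and 1118, 1056 and 803 with saline, or 70.9 and 61.3 CPM against 100.2, 70.1 and 53.6 CPM. The APAP libraries lay within the range of the saline libraries. The log2 fold change was -0.18 (SE 0.30, 95% interval -0.87 to 0.52, edgeR adjusted p 0.761), and it was 0.11 without WT1 and 0.26 with library size in place of TMM. Hgf, its ligand, lies on chr5 at 16553495 to 16620152 on the plus strand (ENSMUSG00000028864). The gene model Gm43489 overlaps its exons over 484 bases on the same strand and held 1 to 6 counts per library. The raw counts of Hgf were 165 and 349 with APAP and 76, 147 and 207 with saline. The corresponding levels were 9.69 and 21.6 CPM against 6.81, 9.77 and 13.8 CPM, with 1 APAP library above the saline libraries and 1 among them. The log2 fold change was 0.62 (SE 0.42, 95% interval -0.38 to 1.62, edgeR adjusted p 0.418), and it was -0.077 without APAP replicate 3. Markers of stellate cells, a source of HGF, had a summed level of 377 to 538 CPM with APAP and 532 to 653 CPM with saline. These ranges overlapped, and the part of stellate cells in the Hgf values was not tested.

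Errfi1 encodes MIG6, a cytoplasmic protein that binds active EGF receptors and blocks their kinase, and whose transcription rises with EGFR signaling. It lies on chr4 at 150853919 to 150868892 on the plus strand (ENSMUSG00000028967). It had the highest counts of the members, 19887 and 21786 raw counts with APAP and 16022, 26680 and 32816 with saline. Its levels were 1168.5 and 1347 CPM with APAP and 1436, 1772 and 2192 CPM with saline, so both APAP libraries were below each saline library. Its log2 fold change was -0.52 (SE 0.31, 95% interval -1.26 to 0.22) and the edgeR adjusted p 0.361. Under the 12 alternative settings it stayed between -0.64 and -0.15 and was not called in any of them. Per kb of exon, Errfi1 was 39.0 and 12.7 times as high as Egfr in APAP replicates 1 and 3 and 20.6 to 35.9 times in saline livers, so the range of this ratio with APAP enclosed that with saline.

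**Figure D3:**
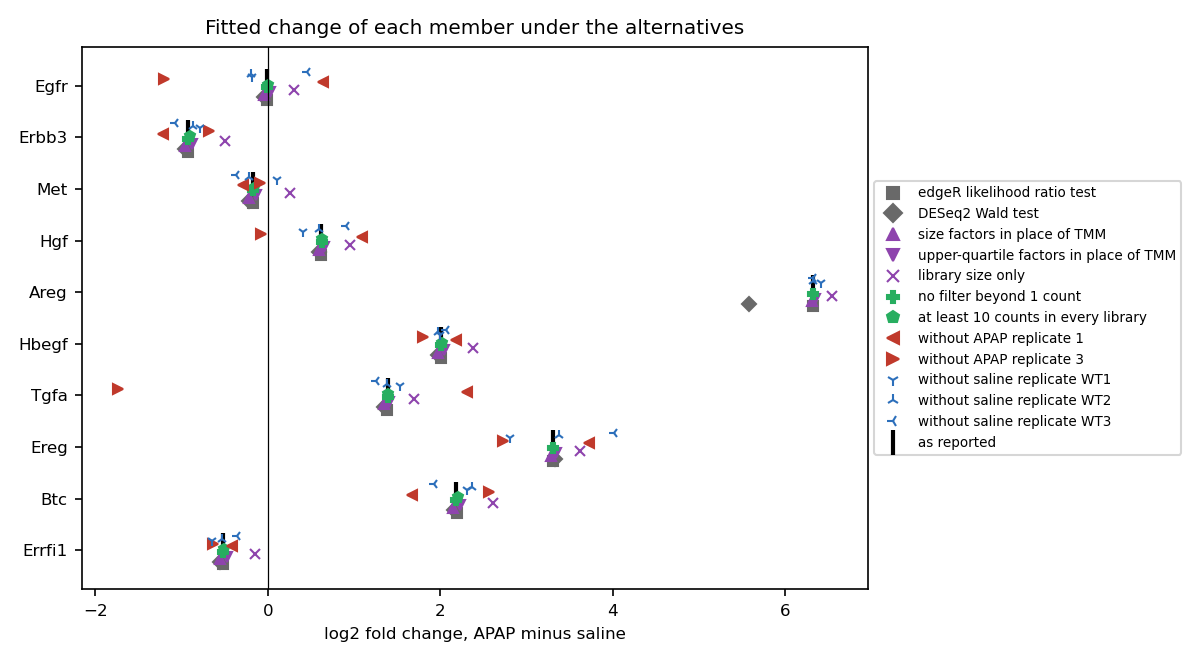
Log2 fold change of each member (horizontal axis, APAP minus saline) as reported and under 12 alternative tests, normalizations, filters and left-out libraries, 1 symbol for each setting. Hbegf and Btc stay above 0 and Erbb3 and Errfi1 below 0 in every setting, while Egfr, Met, Hgf and Tgfa have values on both sides of 0. Ereg and Areg also stay above 0 where tested, but they passed the filter only through their APAP counts, so this is no support.

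In CPM per kb of exon the 10 members had the same order by group mean in both groups. In saline livers Errfi1 was highest with 503 ± 106, followed by Egfr with 19.1 ± 9.15, Erbb3 with 18.3 ± 3.75 and Met with 9.72 ± 3.07 CPM per kb (SD, n = 3). Tgfa followed with 2.93 ± 0.570, Hgf with 1.41 ± 0.490, Btc with 0.310 ± 0.103, Hbegf with 0.230 ± 0.0160 and Ereg with 0.0700 ± 0.0654 CPM per kb, and Areg was at 0. Among these saline neighbours, Egfr overlapped Erbb3 and Btc overlapped Hbegf, and Ereg shared a level of 0 with Areg in WT1, while the other neighbours did not overlap. With APAP the means ran from 351 ± 35.2 for Errfi1, 19.0 ± 15.01 for Egfr, 9.67 ± 2.55 for Erbb3 and 8.61 ± 0.879 CPM per kb for Met to 0.547 ± 0.0897 CPM per kb for Areg (SD, n = 2). Only Errfi1 was separate from its neighbour there, since all other neighbours in the order overlapped. The receptors were thus at higher levels per length than each of the 6 member ligands in saline livers.

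The genes Ereg, Areg and Btc lie within 328.4 kb of chr5, and their neighbours were read as well, chosen after values were seen. The window of 200 kb on either side held 11 genes, of which 8 were tested and 2 had no count. In the 8 tested genes, among them the 3 ligands, both APAP libraries were above each saline library, as in 24.0% of all tested genes. This is a description only, since the window was set around ligands already seen to be higher, and Cxcl2, Ereg, Areg and Parm1 passed the filter through their APAP counts. At the adjusted threshold of edgeR, which 3.70% of all tested genes passed as higher, 4 of the 8 were called. Besides Btc these were the neutrophil chemokines Cxcl1 and Cxcl2 and the unnamed gene model Gm19619. Cxcl1 was at 113 and 153 CPM with APAP, against 3.32, 6.78 and 3.21 CPM with saline. Gm19619, between Areg and Btc, was at 7.17 and 6.74 CPM against 0.0896, 0.731 and 0.868 CPM. Epgn, the gene of the EGF-family ligand epigen, had 4 and 2 counts with APAP and 0 in the saline libraries and was not tested.

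**Figure D4:**
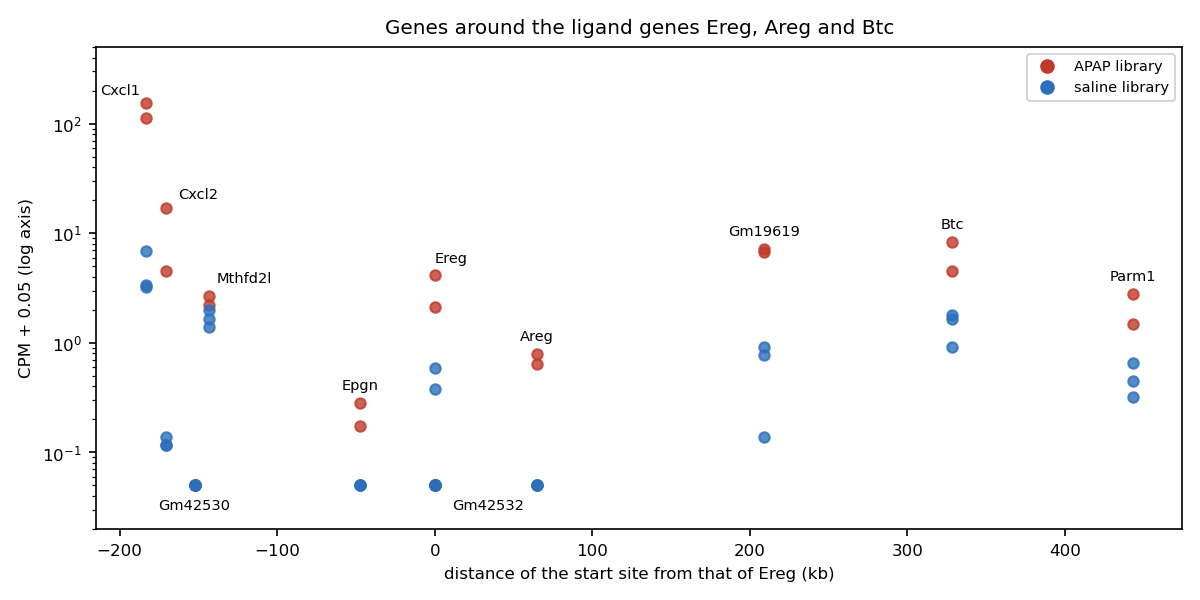
Level of each gene in CPM plus 0.05 (vertical log axis) against the distance of its start site from that of Ereg in kb (horizontal axis), with 1 point for each APAP and saline library. The APAP points of the 8 tested genes lie above their saline points, from Cxcl1 at -183.4 kb to Parm1 at 443 kb.

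Other genes of the pathways were read from lists of 52 genes, of which 48 were tested. The lists were made with earlier results of these data known, so their counts are a description and no test of the pathways. In all, 12 were called higher and 0 lower at the adjusted threshold of edgeR, against a background of 3.70% and 3.53%. At the unadjusted thresholds 24 were called higher and 3 lower, against 12.3% and 11.2% of all tested genes. Some of these genes, such as Nrg1 and Fosl1, passed the filter only through their APAP counts. When each library had to hold at least 10 counts, Nrg1, Fosl1 and Dusp5 left the test. The count at the adjusted threshold was then 11, which includes genes that are not among the 12. The median log2 fold change was 0.74, against 0.03 over all tested genes. Of the 12, 10 were in the list of genes that respond to ERK signaling, and without 1 library the count of 12 ranged from 6 (without APAP replicate 3 or without WT2) to 13 (without WT3).

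Among 14 ERK response genes, 10 were called higher at the adjusted threshold, where 3.70% of all tested genes were. A positive log2 fold change was found in 14, and in 7145 of the 13734 tested genes. The median over the 14 was 3.34. Fosl1 and Etv4 passed the filter only through their APAP counts, which fixed their direction. The 10 called genes were the AP-1 genes Fos, Fosl1, Jun and Junb, and Egr1, Myc, Dusp4, Dusp5, Ier3 and Phlda1. Egr1 and Myc encode transcription factors, and Dusp4 and Dusp5 encode phosphatases that act on MAP kinases. Many of these genes also respond to stress kinases and cytokines. Jun, with the highest mean CPM of this list, was at 88.0 and 555 CPM with APAP, against 15.3, 10.8 and 36.0 CPM with saline (log2 fold change 3.95, SE 0.82). Egr1 was at 134 and 294 CPM against 14.5, 8.97 and 19.9 CPM (3.89, SE 0.45). Myc was at 17.5 and 19.3 CPM against 1.34, 1.79 and 2.34 CPM (3.31, SE 0.31). Fosl1 was at 21.3 and 22.8 CPM with APAP and held at most 1 count per saline library. Its APAP mean of 22.0 CPM was at least 82.0-fold higher than the largest saline floor. The log2 fold changes of the other called genes were 1.80 for Phlda1, 2.13 for Junb, 2.97 for Ier3, 3.36 for Fos, 3.65 for Dusp4 and 5.32 for Dusp5. Dusp6, a phosphatase gene often used as a readout of ERK, did not pass, at 73.5 and 111 CPM against 79.6, 48.2 and 69.9 CPM.

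**Figure D5:**
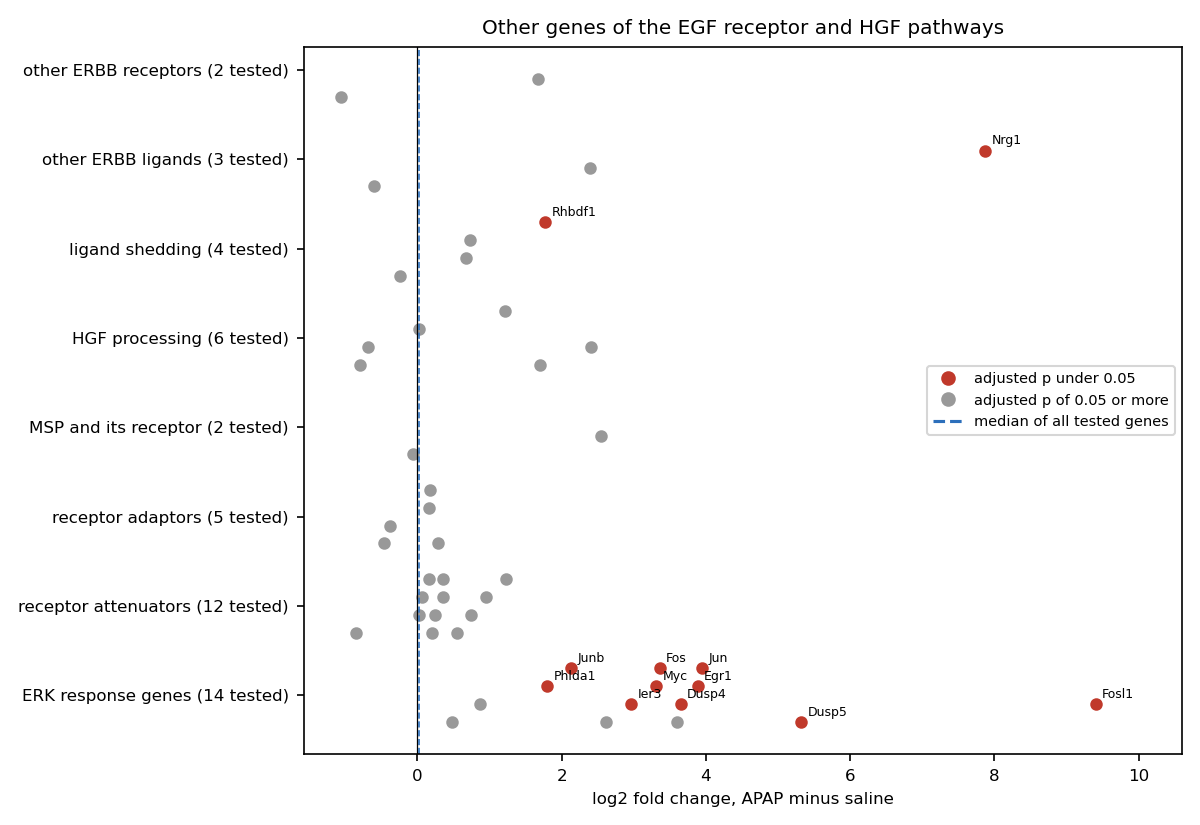
Fitted log2 fold change (horizontal axis, APAP minus saline) of the 48 tested pathway genes by list, 1 point for each gene, with genes under an adjusted p of 0.05 in red and named. Of the 12 red points, 10 are ERK response genes, and the fitted values of Nrg1 and Fosl1, which had almost no saline count, depend on the prior count and are no bounds.

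The other called genes were Nrg1 and Rhbdf1. Nrg1 encodes neuregulin 1, a ligand of ERBB3 and ERBB4. It was at 1.88 and 2.04 CPM with APAP, against 0 in the 3 saline libraries. The APAP mean of 1.96 CPM was at least 7.29-fold higher than the largest saline floor. Nrg4, a ligand of ERBB4 with the highest mean CPM of its list, was at 30.6 and 24.2 CPM against 1.70, 4.38 and 9.29 CPM, without overlap, and missed the adjusted threshold (edgeR adjusted p 0.0548). Rhbdf1 encodes an inactive rhomboid protein that takes part in the maturation of the sheddase ADAM17. It was at 15.5 and 12.4 CPM against 3.32, 5.05 and 3.81 CPM (log2 fold change 1.77, SE 0.29). Adam10, a sheddase gene with the highest mean CPM of the shedding list, was at 40.8 and 39.6 CPM against 32.1, 15.4 and 25.0 CPM and missed the adjusted threshold (edgeR adjusted p 0.199). At the unadjusted thresholds 3 of the 4 shedding genes were called higher, Adam10 among them, and 0 lower. The background there was 12.3% higher and 11.2% lower.

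No gene of the other lists was called at the adjusted threshold in edgeR. Of the 6 tested genes of HGF processing, 2 were called higher and 2 lower at the unadjusted thresholds. Of all tested genes, 12.3% were called higher and 11.2% lower at these thresholds. The lower ones were Hpn and Hgfac, genes of 2 proteases that cleave the HGF precursor. Hpn, with the highest mean CPM of the list, was at 170 and 185 CPM with APAP, against 344, 245 and 266 CPM with saline, and Hgfac was at 85.5 and 104 CPM against 187, 187 and 119 CPM. Plau and Plat, the genes of the plasminogen activators uPA and tPA, were the higher ones, with log2 fold changes of 1.69 and 2.41. Raw counts of Plau were 19 and 26 with APAP against 5, 6 and 6 with saline. Those of Plat were 68 and 37 against 2, 14 and 9. Both passed the filter only through their APAP counts, so their direction was fixed by it. Mst1, which encodes the HGF-related ligand MSP, overlapped between groups at 98.5 and 95.4 CPM against 89.8, 111 and 102 CPM. Erbb2, the preferred partner of the other ERBB receptors, was at 4.29 and 0.989 CPM against 0.807, 0.864 and 0.802 CPM. It was called higher at the unadjusted thresholds, although its APAP libraries differed 4.34-fold. Of the 5 receptor adaptors 0 passed either threshold, with Ptpn11 at 91.0 and 96.9 CPM against 78.0, 76.7 and 93.9 CPM. Of the 12 attenuators of receptor signaling, 2 (Spry2 and Spry4) were called higher and 1 (Ptprj) lower at the unadjusted thresholds, which is near the background of 12.3% and 11.2%. Ptprj, a receptor phosphatase gene, was at 23.0 and 36.7 CPM against 52.7, 54.7 and 54.3 CPM.

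The genes closest in profile over the 5 libraries were found by the root mean square difference of centred log2 CPM. For Hbegf these were Tgif1 (0.0705) and Haus8 (0.117), and for Btc they were Incenp (0.115) and Inhba (0.142). For the receptors they were Slc30a3 (0.0902) and E2f1 (0.128) for Egfr, Cdh13 (0.0625) and Pnkd (0.0909) for Erbb3, and Ppdpf (0.0210) and Hmgcs1 (0.0489) for Met. The nearest genes share a shape over libraries and not a level.

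Neutrophil and cholangiocyte markers had higher summed levels in both APAP libraries, as did the 4 ligands that did not overlap. The summed level of 6 cholangiocyte markers was 347 to 356 CPM with APAP and 47.1 to 52.3 CPM with saline. At the adjusted threshold of edgeR 2 of the 5 tested markers were called higher, Spp1 and Sox9. The share of all tested genes called higher at this threshold was 3.70%. Spp1 alone made up 276 and 313 CPM of the sum with APAP and 37.7 to 42.6 CPM with saline. The defining marker Krt19 was at 23.6 and 2.72 CPM with APAP, against 1.25, 2.06 and 2.54 CPM with saline, and Epcam had 8.23 and 2.41 CPM against 1.79, 1.46 and 2.34 CPM. In APAP replicate 3 both were thus close to the saline levels. The 7 neutrophil markers summed to 74.1 to 108 CPM against 5.31 to 8.28 CPM, and 5 of the 6 tested were called higher. Among the called ones, S100a8, Cxcr2 and Retnlg passed the filter only through their APAP counts, which fixed their direction. The sums of the other non-parenchymal cell types examined overlapped between groups. Monocyte markers summed to 92.9 to 150.3 CPM against 73.9 to 109.8 CPM, with 2 of 5 called. The called monocyte marker Chil3 also passed the filter only through its APAP counts. Endothelial markers summed to 102 to 167 CPM against 111 to 172 CPM. No marker of these lists was at 0 in all libraries, and the part of these cells in the values of the ligands was not tested.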

How the data were processed

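Liver RNA-Seq counts were analysed from 2 APAP and 3 saline libraries. The authors prepared mRNA libraries, sequenced them on an Illumina NovaSeq instrument, used HISAT2 for alignment and deposited raw counts for each gene. The submitters' processing notes name the build GRCm38. The annotation, strand setting and program versions are not given in the sources used here. The deposited FPKM, in 5 columns, were not used. Coordinates are those of the deposited table. GENCODE M21 (GRCm38) held identical coordinates for 9 of the 10 members and gave their exon lengths and overlaps. Of the 50-base words of the members, 0.167% for Egfr and none for the others occurred in another gene.

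The tests used edgeR 4.0.16 (R 4.3.3). The filter filterByExpr, at a minimum count of 10 and a minimum total of 15, kept 13734 of 34745 genes. After TMM normalization, APAP and saline livers were compared with glmQLFit and glmQLFTest (quasi-likelihood), with Benjamini-Hochberg adjustment over all tested genes and a threshold of 0.05. The script was tested on simulated data. Where no library of a group exceeded 3 counts, the fold was taken against that floor. Replicate libraries differed by more than counting error, at a chi-square of 43.2 to 92.2 times its degrees of freedom, and were counted singly. The 12 alternatives were edgeR's likelihood ratio test, DESeq2 1.42.0, 3 other normalizations, 2 other filters and each library left out. Python 3.11.15 with matplotlib 3.10.9 served for sequences and plots.

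The members and lists were chosen with earlier results of these data known. Named were all members, of each pathway list the called genes and the gene with the highest mean CPM, and, for each receptor and each member called at the adjusted threshold, the 2 genes of closest profile. Cxcl1, Cxcl2, Gm19619, Epgn, Parm1, Dusp6, Etv4, Epcam, S100a8, Cxcr2, Retnlg, Chil3, Hgfac, Plau, Plat, Spry2 and Spry4 were named after their values were seen.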

Additional observations from a re-analysis of the deposited data

How the results depend on the processing

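The count of members at the adjusted threshold, 2 as reported, was 4 with edgeR's likelihood ratio test, 5 with DESeq2 (4 higher and 1 lower), 3 with library size only and with no filter, and 0 to 1 when 1 library was left out (1 without APAP replicate 1, otherwise 0). The count at the unadjusted thresholds (1.5-fold, p under 0.05), 5 as reported, was 3 when each library had to hold at least 10 counts, which removes Areg and Ereg from the test, and 3 to 6 with 1 library left out. The count of pathway genes at the adjusted threshold, 12 as reported, was 18 with the likelihood ratio test, 19 with DESeq2 (16 higher and 3 lower) and 6 to 13 with 1 library left out. The causes of these differences between tests were not tested, except that fewer libraries leave fewer degrees of freedom. Where 1 APAP library was left, it was assumed to vary like the saline libraries. Egfr, Met, Hgf and Tgfa changed direction, and none of them was called as reported. The log2 fold change of Egfr was 0.027 with upper-quartile factors, 0.30 with library size only, and between -1.20 and 0.64 with 1 library left out (0.64 without APAP replicate 1 and 0.46 without WT3). That of Met was 0.26 with library size only and between -0.37 and 0.11 with 1 library left out (0.11 without WT1). The value of Hgf ranged from -0.077 (without APAP replicate 3) to 1.09, and that of Tgfa from -1.73 (without APAP replicate 3) to 2.31 (without APAP replicate 1). Library size only moved the median of all genes to 0.42. No paired analysis was possible because the saline columns cannot be tied to the numbered saline samples, and the names of the libraries carry no shared pairing. Low counts limit Areg and Ereg, and 2 APAP libraries limit Tgfa, Egfr and Hgf.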
